A study of Mus musculus with 8 samples.

Results

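Aplp1 and Kirrel2 are neighbouring mouse genes that the study listed as higher in Smarcad1-KO small intestine. They were taken by name from a table of 119 genes that differed between the genotypes, so they make up 2 of 119 genes. Because the pair was chosen by its higher RPKM in KO than in WT, that difference is given as a description, with no test. RNA had been sequenced from whole small intestinal (SI) tissue of 4 wild type (WT) and 4 Smarcad1-KO (KO) male C57BL/6 mice. The KO carried loxP sites around some exons of Smarcad1, and Vil-cre, a Cre recombinase under the Villin promoter. Vil-cre acts in the intestinal epithelium, so muscle, nerve and immune cells of the tissue kept an intact Smarcad1. The KO line descends from a single targeted embryonic stem cell clone. The age of the mice, and whether the WT mice carried the loxP sites or the Cre, are not given in the sources used here.

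Aplp1 encodes amyloid precursor-like protein 1, a membrane protein related to the Alzheimer amyloid precursor that is found mainly in neurons, where members of the family take part in cell adhesion and at synapses. Kirrel2 encodes a cell adhesion protein of the immunoglobulin superfamily, related to nephrin, which is known from pancreatic beta cells and kidney podocytes. Smarcad1 is a chromatin remodeler linked to the maintenance of silent chromatin. The study also names Aplp1 and Kirrel2 among genes upregulated in several of its other datasets. It gives small intestinal organoids and colon for each, and sorted transit amplifying cells and adult enterocytes for Aplp1. The organoids came from mice that had lost Smarcad1 through ZP3-cre, during the development of oocytes, and not through Vil-cre. These other datasets are not analysed here.

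Both genes lie on the minus strand of chromosome 7 (GRCm38). The file places Aplp1 at chr7:30434981-30445582, a span of 10602 bases, and Kirrel2 at chr7:30447534-30457690, a span of 10157 bases. The principal annotated transcript of Aplp1 has 17 exons over 2343 bases and that of Kirrel2 has 15 exons over 3352 bases. Kirrel2 lies upstream and is read towards Aplp1, with 1951 bases between the end of Kirrel2 and the start of Aplp1. On the other side Nphs1, the gene of nephrin, starts on the plus strand 624 bases beyond Kirrel2, so that these relatives are read away from each other. No annotated gene overlapped the span of either member (0 genes in GENCODE release M21).

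**Figure D1:**
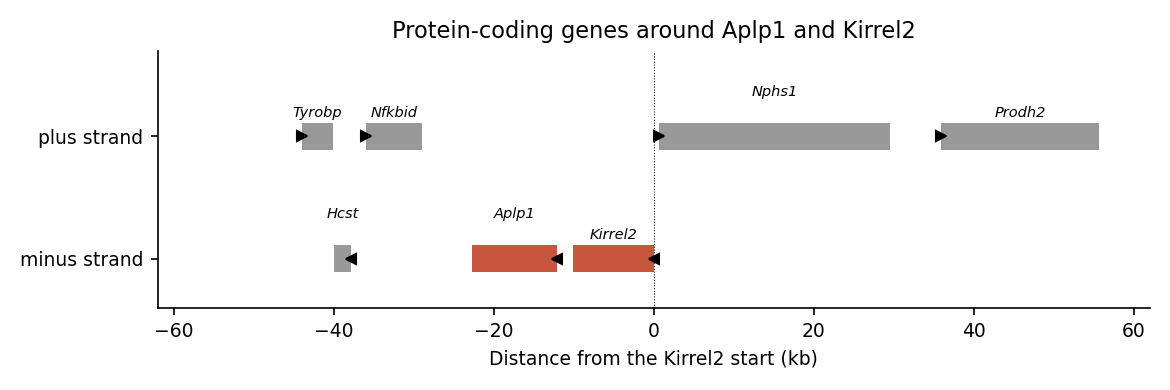
Protein-coding genes around the pair, by distance in kb from the annotated start of Kirrel2 (dotted line). Bars are gene spans on the plus (upper) and minus (lower) strand, arrowheads mark starts and Aplp1 and Kirrel2 are in red. Kirrel2 and Aplp1 follow each other on one strand, and Nphs1 starts just beside Kirrel2 on the other.

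The 250 bases upstream of each RefSeq start (GRCm38.p6, minus strand, 5′ to 3′) are shown because both genes were higher in KO while each has a start region of its own. Capitals mark GGGCGG, the core of a binding motif for Sp1-type factors. The Aplp1 stretch is chr7:30445583-30445832 and the Kirrel2 stretch is chr7:30457516-30457765.
Aplp1: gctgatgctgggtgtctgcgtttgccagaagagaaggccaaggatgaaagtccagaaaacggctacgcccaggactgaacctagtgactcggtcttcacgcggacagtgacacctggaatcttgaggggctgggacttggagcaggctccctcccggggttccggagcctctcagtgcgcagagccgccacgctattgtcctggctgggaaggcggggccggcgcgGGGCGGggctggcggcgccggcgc
Kirrel2: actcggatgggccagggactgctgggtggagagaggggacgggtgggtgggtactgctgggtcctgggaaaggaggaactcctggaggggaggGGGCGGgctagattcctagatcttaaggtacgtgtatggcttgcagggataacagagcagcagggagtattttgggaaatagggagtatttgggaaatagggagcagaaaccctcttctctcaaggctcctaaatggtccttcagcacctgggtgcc
The start regions differed in base composition. That of Aplp1 had 66.0% G and C and 20 CpG sites, more CpG than 82.1% of 32851 promoters of the same length. That of Kirrel2 had 56.4% G and C and 4 CpG sites, more than 37.8% of promoters, where the median promoter had 6. Each held 1 GGGCGG, counted on both strands, a motif present in 32.7% of promoters. Neither held TATAAA (12.4% of promoters) or CCAAT (33.9%) on either strand. No match of one motif overlapped another in these windows. These matches describe the letters in the window and not binding. Transcripts of Kirrel2 in GENCODE reach past the RefSeq start, to base 30457690, so most of its stretch lies inside the annotated gene. The Aplp1 stretch lies outside its gene, so the base compositions are not of like regions.

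Values are RPKM, reads divided by kilobases and by the depth of the library, where the kilobases are those of the genomic span, introns included. The RPKM implied between 56981718 and 78026422 mapped reads per library, and every one of the 939 values above 0 in the table came to a whole number of reads within 0.05 of a read. The targeted gene went with the labels: the mean level of Smarcad1 was 0.235 ± 0.0308 RPKM in KO against 0.334 ± 0.0288 RPKM in WT (SD, n = 4 each), with every KO library below every WT library. None of 7 enterocyte, 12 enteric neuron, 4 enteric glia, 12 enteroendocrine or 5 pancreatic islet markers was in the table (0 genes in each list). The labelled tissue thus could not be checked against these lists, and levels of their genes are not analysed here. Defensin genes were in the table but in none of the lists, and were not used as a check. Of 14 pancreatic acinar markers, 2 were in the table. Pnliprp2, a pancreatic lipase-related gene, averaged 4.08 ± 0.688 RPKM in KO against 6.34 ± 1.33 in WT (SD, n = 4 each), and Clps, colipase, averaged 18.9 ± 2.81 against 26.0 ± 3.81 RPKM (SD, n = 4 each). Both means were thus lower where Aplp1 and Kirrel2 were higher. The groups did not overlap for Pnliprp2. For Clps they did, with KO library 2 at 22.4 RPKM above WT library 1 at 21.1 RPKM. The defensin genes of the table, which are not acinar markers, were lower in KO as well. The part of any of these genes in the result was not tested. In whole tissue, more cells that express a gene and more RNA per cell cannot be told apart.

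Aplp1 was a well-expressed gene in both genotypes. In WT libraries 1 to 4 it had 6.89, 8.91, 9.91 and 5.79 RPKM. In KO libraries 1 to 4 it had 20.2, 16.2, 17.3 and 14.7 RPKM. The groups did not overlap: the lowest KO library lay 1.49 times above the highest WT library. Of the 119 genes, 58 (48.7%) were higher in KO without overlap, so lying apart is common in this preselected table and says nothing particular about the pair. The KO mean of Aplp1 was 17.1 ± 2.33 RPKM against a WT mean of 7.87 ± 1.87 (SD, n = 4 each), a ratio of 2.17. On the log2(RPKM + 0.1) scale the difference was 1.13 ± 0.20 (SE), beside a median of 0.72 over the 59 genes higher in KO and of -0.07 over all 119. By mean RPKM in KO, Aplp1 stood 18th of 119, and by the log2 difference 14th.

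Kirrel2, in contrast, was near absent from WT tissue and scarce in KO tissue. WT libraries 1, 2 and 4 held 0 reads, which allows a level of up to 0.00518, 0.00508 and 0.00420 RPKM if 3 reads are taken as the limit. WT library 3 held 2 reads, or 0.00311 RPKM. KO libraries 1 to 4 held 77, 30, 54 and 58 reads, or 0.103, 0.0504, 0.0873 and 0.0732 RPKM. All 4 KO libraries thus lay above all 4 WT libraries, with a KO mean of 0.0784 ± 0.0222 RPKM (SD, n = 4). The pooled reads, 219 in KO against 2 in WT, gave a ratio per mapped read of 100.3, with an exact conditional 95% interval of 27.4 to 834 that covers counting error only. The upper end is wide because it rests on those 2 reads. Set against 3 reads over the 4 WT libraries together, the KO mean was 66.0 times as high. The difference on the log2(RPKM + 0.1) scale was 0.82 ± 0.09 (SE), a value that depends on the pseudocount, since the levels lie at or under it. Kirrel2 was 1 of 4 genes of the table whose WT libraries each held at most 2 reads. By mean RPKM in KO it stood 113th of 119, and by the log2 difference 24th.

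**Figure D2:**
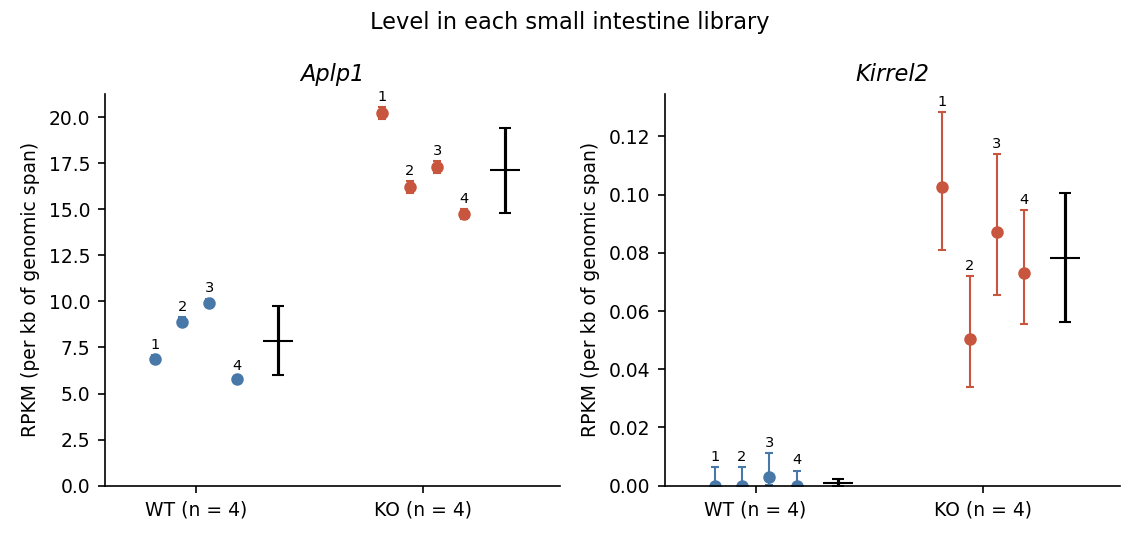
RPKM per kb of genomic span of Aplp1 (left) and Kirrel2 (right) in each WT (blue) and KO (red) library, numbered by replicate, on separate linear axes. Coloured bars are 95% Poisson intervals of the reads, and black marks are the group mean with SD (n = 4), drawn down to 0 at most. Aplp1 ranges from 5.79 to 9.91 in WT and from 14.7 to 20.2 in KO, whereas Kirrel2 is at 0 in 3 WT libraries and between 0.0504 and 0.103 in KO.

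The difference in level between the neighbours was large. Per kilobase of merged exons, Aplp1 had 27.7 ± 6.59 in WT and 60.1 ± 8.18 in KO, and Kirrel2 had 0.00201 ± 0.00401 in WT and 0.202 ± 0.0573 in KO (RPKM recalculated per kilobase of exons, SD, n = 4 each). In KO the exon-scaled level of Aplp1 was 313 ± 83.6 times that of Kirrel2 (SD, n = 4), from 269 to 438 times. This scaling takes all reads as exonic. The study's methods describe counting over exons, whereas the RPKM were per genomic span, and whether reads within introns were counted is not settled. Exons make up 28.5% of the span of Aplp1 and 38.8% of that of Kirrel2.

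The spread among KO libraries exceeded counting error for both genes. The coefficient of variation (CV) of Aplp1 was 13.6% in KO, where 0.914% would come from counting, and that of Kirrel2 was 28.3%, where 14.3% would. For Kirrel2, KO libraries 1 and 2 had 95% Poisson intervals of 0.0810 to 0.128 and 0.0340 to 0.0719 RPKM, which did not overlap. In WT the CV of Aplp1 was 23.8% over a mean of 5154 reads.

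**Figure D3:**
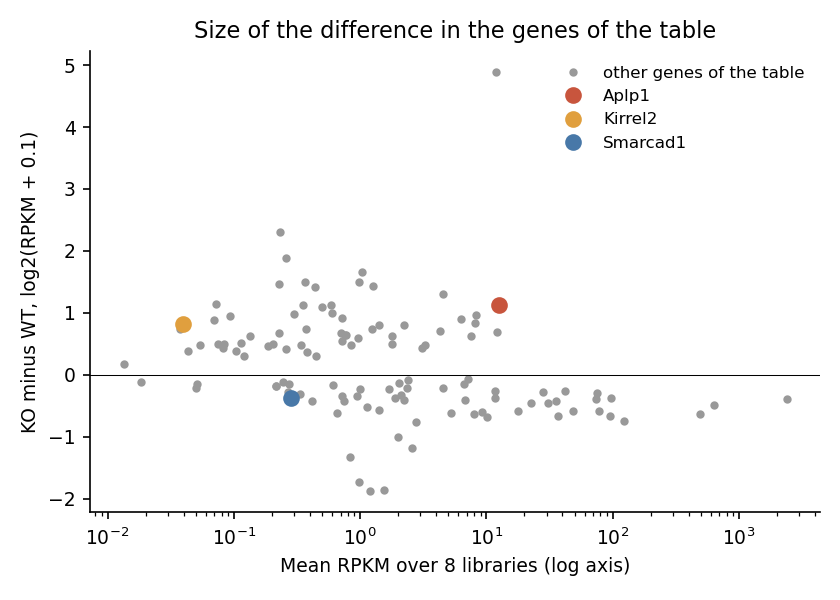
Difference between KO and WT means on the log2(RPKM + 0.1) scale (vertical axis) against the mean RPKM over all 8 libraries (horizontal log axis) for the 119 genes of the table, each a point. Aplp1 (red, 1.13) is the only one of the pair in the well-expressed range, Kirrel2 (yellow, 0.82) lies near the lower end of expression, and Smarcad1 is in blue.

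Whether the neighbours varied together was then asked within the genotypes, from the deviations of libraries from their group mean. These leave out the difference between the group means. The authors' test behind the table also weighs the spread within groups, so the deviations are not fully free of the selection. In KO, library 1 was highest and library 3 second for both genes. The lower places were exchanged: library 4 was lowest for Aplp1 and library 2 for Kirrel2. In WT, the library with the 2 Kirrel2 reads, library 3, was also the highest for Aplp1. Both genes deviated to the same side of their group mean in 7 of 8 libraries. In WT the side of Kirrel2 follows in every library from those 2 reads, since the other WT libraries held none. How often other genes of the table matched Aplp1 in this way was not counted.

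These deviations, on the log2(RPKM + 0.1) scale, had a Pearson's r of 0.407 over 8 libraries (exact permutation test within groups, two-sided, p = 0.146, Benjamini-Hochberg adjusted p = 0.438 over 3 relations). Spearman's rho was 0.610 (exact permutation test, p = 0.0625, adjusted p = 0.188). Without the 2 libraries farthest from the median of Aplp1, WT 3 and WT 4, r was 0.550. The WT libraries kept there held 0 Kirrel2 reads, so this r rests on the KO libraries. Without KO library 1, the highest for both genes, r was 0.177 (exact permutation test, p = 0.5). The smallest p that the test of r allows for this pair is 0.0104, since 3 WT libraries share the value 0 for Kirrel2. Co-variation of the pair was thus not shown at this number of libraries, and 3 of 4 WT libraries at 0 reads leave Kirrel2 almost no range in WT.

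**Figure D4:**
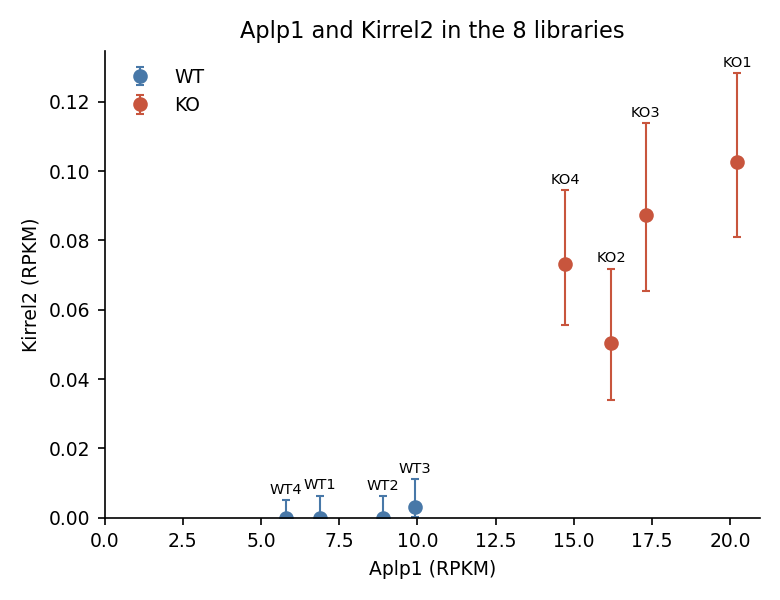
Kirrel2 against Aplp1, both in RPKM on linear axes from 0, in the 8 libraries, with 95% Poisson intervals for Kirrel2. The 4 WT libraries (blue) lie along the axis at 0 to 0.00311 RPKM of Kirrel2, and among the KO libraries (red) KO1 is highest for both genes while KO2 lies below the others for Kirrel2.

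The number of Kirrel2 reads for each 1000 Aplp1 reads, which needs no scaling to depth, was 4.86, 2.98, 4.83 and 4.76 in KO libraries 1 to 4. KO libraries 1, 3 and 4 thus lay within a narrow range and library 2 below it. The 95% Poisson interval of library 2, 2.01 to 4.26, overlapped those of the others, of which the lowest began at 3.62. In WT library 3 the share was 0.301 (95% Poisson interval 0.0364 to 1.09), and in the other WT libraries it was 0, with upper limits of the 95% interval from 0.672 to 0.887. Each KO interval lay above each WT interval. This share uses the contrast by which the genes were chosen and is a description.

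The members were also compared with the level of Smarcad1, taken over the whole gene span in both genotypes. The deletion removes only some exons, so this level can include transcripts of the deleted gene. It is not a measure of functional Smarcad1. Within the groups, Aplp1 and Smarcad1 had r = 0.348 (exact permutation test, two-sided, p = 0.392, adjusted p = 0.589) and rho = 0.214 (exact, p = 0.597, adjusted p = 0.656), and r was -0.0581 without WT 3 and WT 4. Kirrel2 and Smarcad1 had r = 0.284 (exact permutation test, two-sided, p = 0.625, adjusted p = 0.625) and rho = 0.171 (exact, p = 0.656, adjusted p = 0.656), and r was -0.418 without KO 1 and KO 2. The relation of Aplp1 with Smarcad1 rested on single libraries and on the scaling, with r = 0.895 without KO library 4 (exact permutation test, unadjusted p = 0.0278, in a range from 0.0278 to 0.958 over its alternatives), r = 0.0414 without WT library 3 and r = -0.355 under the median-ratio scaling (exact, p = 0.403). That of Kirrel2 turned to r = -0.247 without KO library 2 (exact, p = 0.958). With all libraries and the deposited scaling no relation passed the threshold, and with 8 libraries this does not show that the levels are unrelated.

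Kirrel2 was not among the genes nearest to Aplp1. Ordered by r of the deviations, Kirrel2 was the 59th of the 118 other genes, and its r of 0.407 was close to the median of 0.398. Aplp1 varied more in WT than in KO, while Kirrel2 had almost no range in WT. This limits how high r of the pair could be, so the place cannot say whether the neighbours vary together. Among the genes with a mean of at least 0.5 RPKM, those nearest to Aplp1 were Fam108a (r = 0.949), Ccng1 (r = 0.945), which encodes cyclin G1, and Tubb2a (r = 0.937), a beta-tubulin, over 8 libraries. They lie on chromosomes 10, 11 and 13. Fam108a was higher in KO, as Aplp1 was, with 14.9 ± 1.51 RPKM against 9.35 ± 1.97 in WT (SD, n = 4 each). Ccng1 was lower in KO, with 10.7 ± 1.51 against 12.8 ± 1.68 RPKM, and so was Tubb2a, with 4.16 ± 0.282 against 4.98 ± 1.40 RPKM (SD, n = 4 each).

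Seen from Kirrel2, Aplp1 was the 23rd of 118. Among the genes with a mean of at least 0.5 RPKM, the nearest were Gm10104 on chromosome 8 (r = 0.778), Irs2 (r = 0.731), an adaptor of insulin signalling, and Habp2 (r = 0.722), a hyaluronan-binding serine protease. Irs2 was higher in KO, with 1.18 ± 0.153 RPKM against 0.743 ± 0.0726 in WT, whereas Gm10104 was lower, with 6.20 ± 1.09 against 9.65 ± 1.33 RPKM, and Habp2 as well, with 0.628 ± 0.0890 against 0.867 ± 0.0765 RPKM (SD, n = 4 each). For each member, then, 1 of the 3 nearest genes above this minimum was higher in KO and the other two were lower.

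**Figure D5:**
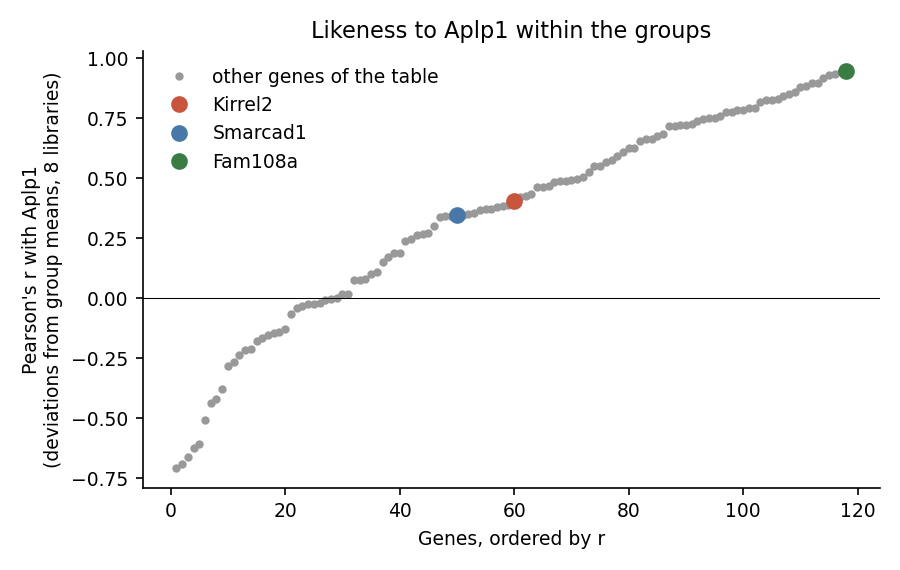
Pearson's r of each of the other 118 genes with Aplp1 (vertical axis), from deviations of log2(RPKM + 0.1) from the group means in 8 libraries, with genes ordered by r. Kirrel2 (red, 0.407) and Smarcad1 (blue, 0.348) lie in the middle of the order, and Fam108a (green, 0.949) at its top. Kirrel2 had almost no range in WT, which limits its r.

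Many genes shared the pattern of Aplp1, with 32 of 118 above an r of 0.7, and these correlations share the depth scaling of the libraries. Size factors from the median ratio over 112 genes of the table were 0.843 and 0.851 in WT libraries 1 and 4, where Aplp1 was low, and 1.04 in both WT libraries 2 and 3, where it was high. All of these genes had been selected as differing between the genotypes, whereas such scaling takes most genes as unchanged. What follows from the factors is thus a check only. After division by these factors Aplp1 had 8.17, 8.59, 9.51 and 6.81 in WT libraries 1 to 4, and its WT CV fell from 23.8% to 13.6%. In KO it then had 19.1, 16.2, 16.2 and 14.8, still without overlap with WT. The r between Aplp1 and Kirrel2 was 0.404 on this scale (exact permutation test, two-sided, p = 0.292), while the median r of the other genes with Aplp1 fell to -0.10 and those above 0.7 fell to 7. The place of Kirrel2, an alternative chosen after the values were seen, then moved to the 21st of 118. It is limited in the same way by the lack of range of Kirrel2 in WT. The nearest gene to Aplp1 remained Fam108a, and 2 of its 3 nearest genes above 0.5 RPKM were shared between the scalings. For Kirrel2 only 1 of 3 was shared, Gm10104, and Irs2 and Habp2 were no longer among them.

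The 12 protein-coding genes annotated within 100 kb of the pair include 10 others, and 0 of these were in the table. Nphs1, next to Kirrel2, was thus not in it. The nearest other gene of the table on chromosome 7 lay 13.2 Mb away, and 0 lay within 1 Mb. The table held 35 pairs of genes starting within 100 kb of each other, and the genes of each pair differed in the same direction, 5 pairs higher and 30 lower in KO, with 0 opposite. Of the lower pairs, 25 came from the defensin region of chromosome 8, where 1 gene enters several pairs. Aplp1 and Kirrel2 stood 4th of the 5 higher pairs by r within the groups, where r ran from -0.231 to 0.842 with a median of 0.481. The lack of range of Kirrel2 in WT limits this place too.

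Of the wider families, Aplp1 was the only one of 19 genes of the amyloid precursor family and its processing in the table, without its relatives App and Aplp2. Kirrel2 was the only one of 12 genes of the nephrin and Kirrel families and their partners, without Kirrel3 or Nphs1. Levels of genes outside the table are not analysed here, so whether they differed is not known from it.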

How the data were processed

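RNA had been extracted from frozen, ground SI tissue. Per the methods and processing notes, the authors trimmed reads with Trim Galore 0.4.1, mapped them to GRCm38 with HISAT2 2.0.1, kept unique alignments, counted reads in SeqMonk over the exons of merged transcripts, as described, and tested raw counts with DESeq2. The deposited table holds the 119 genes under an FDR of 0.05, with 1 RPKM per library. The authors' group means and FDR columns were not used. Genes that did not pass the FDR are not analysed here.

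Reads were recovered as RPKM times the genomic span times the library's depth, taken as the lowest one at which all values came out whole. The 4 libraries per genotype are taken as separate mice. Aplp1 and Kirrel2, and the gene lists, were chosen with earlier results of these data known. Means are given with SD (n = 4), differences on log2(RPKM + 0.1), and co-variation by exact two-sided within-group permutation. This scale understates differences of genes with low RPKM. In simulated data the permutation test, at a threshold of 0.05, called 28 of 400 unrelated pairs and 59 of 60 related pairs. The number of unrelated pairs had been raised after a smaller first run called too many. The related pairs were planted as nearly identical, far closer than Aplp1 and Kirrel2 were. Their share thus does not measure how often a weaker relation would be found. How often the permutation test calls related pairs when most WT libraries hold 0 reads, as for Kirrel2, was not tested. Intervals and limits cover counting error only.

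Named genes were Smarcad1, the pair, table genes within 1 Mb, listed markers in the table, adjacent annotated genes and the 3 genes most like each member with a mean of at least 0.5 RPKM. Alternatives were pseudocounts of 0.01 and 1, that minimum, linear RPKM, median-ratio scaling, the replicate block and leaving out each library. Promoter bases are from RefSeq (2 of 2 members matched by symbol) and gene models from GENCODE M21. Calculations used Python 3.11.15, numpy 2.4.6, pandas 2.3.3, scipy 1.17.1 and matplotlib 3.10.9.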

Additional observations from a re-analysis of the deposited data

Results flagged for a closer look

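In 10 groups of 4 libraries examined for a single distant library (the levels of both genes and of Smarcad1, the depth, and the Kirrel2 reads per 1000 Aplp1 reads), 3 exceeded Dixon's 95% critical value of gap over range, where chance gives about 1 in 20 for untied values. With 3 libraries at 0 reads, any reads in the fourth give a value of 1 by construction, so this rate does not apply to the WT values below. The gap of Kirrel2 in WT replicate 3 made up 1.000 of the range of its group, from 2 reads against 0 in the other WT libraries. The Kirrel2 reads per 1000 Aplp1 reads in WT replicate 3 gave 1.000 from the same 2 reads. The same share in KO replicate 2 gave 0.946, with 2.98 against 4.76 to 4.86 in the other KO libraries, and rested on 30 Kirrel2 reads. The last comparison was added after the values were seen.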

How the results depend on the processing

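Of 62 recalculations, 54 were counted as unchanged. The differences and correlations among them kept their direction and side of the threshold or shifted by under 1 SD of the replicates. Places in an order have no direction or SD. Those of Kirrel2 among the genes most like Aplp1, 59 at first, were 45 with a pseudocount of 0.01 and 42 at a mean of at least 0.5 RPKM. Both were counted as unchanged. The log2 difference of Kirrel2 became 3.01 with a pseudocount of 0.01 and 0.11 with 1, and its KO level was 16.4 times the WT reference when 3 reads were set in each WT library, both by construction. Genes higher in KO without overlap became 28 at a mean of at least 0.5 RPKM, where fewer genes were counted. The place of Kirrel2 among the genes most like Aplp1 became 21 under median-ratio scaling, chosen after seeing the data. Between Aplp1 and Smarcad1, r reversed to -0.355 under that scaling (exact permutation p = 0.403), and without KO replicate 4 it was 0.895 with an unadjusted exact p of 0.0278. Over the alternatives of that relation p ran from 0.0278 to 0.958. Between Kirrel2 and Smarcad1, r reversed to -0.247 without KO replicate 2. The causes of these shifts in r were not tested.

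With 1 library left out, the log2 difference of Aplp1 ran from 1.00 to 1.25, that of Kirrel2 from 0.75 to 0.89, and r of the pair from 0.177 to 0.600. The exact p of the pair ran from 0.0833 to 0.5 over all alternatives. The r of Aplp1 with Smarcad1 ran from 0.0414 to 0.895 and that of Kirrel2 from -0.247 to 0.529. Whether the replicate numbers pair the libraries is not known. Same-numbered deviations had r of 0.27, 0.21, -0.11 and -0.03 across 77 genes of this preselected table, which cannot decide it. A replicate block left the differences at 1.13 for Aplp1 and 0.82 for Kirrel2 by construction, with SE of 0.18 and 0.09. Median-ratio scaling moved the median of all genes by -0.07. Depth limits Kirrel2, with 2 WT reads in all, and 8 libraries limit every correlation.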
